A study of Mus musculus with 2 samples.

Results

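The cytochrome P450 genes were followed in DNase-seq data from mouse frontal cortex. Members were the protein-coding genes of the GENCODE annotation of build mm10 whose symbol is Cyp followed by a family number, a letter and a second number. The rule found 98 genes among 21938 protein-coding genes. It left out Cyp51, the lanosterol demethylase of cholesterol synthesis, and Cyp2ab1, whose symbols have another form. The libraries came from female B6CASTF1/J mice, the F1 cross of C57BL/6J and CAST/EiJ, at 25 days of age. They form 1 group of 2 libraries, replicate 1 and replicate 2, with separate biosample labels and the same donor identifier. There is no treatment, genotype or tissue to compare with, so every comparison is between sets of genes within these libraries.

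Cytochrome P450 enzymes are heme proteins that add oxygen to small lipophilic molecules, using electrons handed over by a reductase or a ferredoxin. One branch acts on endogenous substrates: it turns cholesterol into oxysterols and bile acids, clears retinoic acid, and activates or inactivates vitamin D. Other branches, above all the Cyp2 and Cyp3 families of liver, oxidise drugs, toxins and fatty acids, and their genes stand in tandem clusters of near copies. In brain the best known member is Cyp46a1, the neuronal cholesterol 24-hydroxylase through which cholesterol leaves the brain as 24S-hydroxycholesterol. DNase I cuts open chromatin, so a peak marks accessible DNA, and a footprint is a short protected stretch inside it. A peak does not measure transcription.

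The sequences below show what an open and a closed P450 promoter looked like. The first 3 runs are the parts of promoter peaks that lie upstream of the gene's annotated 5′ end, cut to the 300 bases nearest that end where longer. They are from the mm10 genome on the gene's strand, with capitals for bases inside footprints of both libraries. They come from Cyp46a1 (chr12:108334041-108334340, plus strand), from Cyp2u1, a fatty acid hydroxylase found in brain (chr3:131303228-131303360, minus strand), and from Cyp2j9, an arachidonic acid epoxygenase (chr4:96591801-96592000, minus strand).
Cyp46a1 promoter peak: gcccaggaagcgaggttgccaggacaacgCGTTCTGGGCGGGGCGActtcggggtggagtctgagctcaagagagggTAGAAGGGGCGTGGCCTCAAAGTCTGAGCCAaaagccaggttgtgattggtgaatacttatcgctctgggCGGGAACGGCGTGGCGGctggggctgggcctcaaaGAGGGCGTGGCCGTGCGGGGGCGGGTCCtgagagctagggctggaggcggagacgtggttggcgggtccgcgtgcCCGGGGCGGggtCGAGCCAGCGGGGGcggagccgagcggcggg
Cyp2u1 promoter peak: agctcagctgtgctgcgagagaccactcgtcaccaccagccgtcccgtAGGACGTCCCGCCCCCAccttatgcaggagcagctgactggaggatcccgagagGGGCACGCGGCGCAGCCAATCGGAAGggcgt
Cyp2j9 promoter peak: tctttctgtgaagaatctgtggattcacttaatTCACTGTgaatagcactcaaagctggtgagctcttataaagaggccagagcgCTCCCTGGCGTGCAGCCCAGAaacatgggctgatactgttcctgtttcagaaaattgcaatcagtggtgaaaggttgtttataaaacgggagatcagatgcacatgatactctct
The Cyp46a1 run of 300 bases held 29 CpG dinucleotides and 5 copies of GGGCGG counted on both strands, and 116 of its bases lay in footprints of both libraries. The Cyp2u1 run of 133 bases held 12 CpG. The Cyp2j9 run of 200 bases held 3 CpG, no GGGCGG and 3 copies of TATAAA on either strand.

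The next runs are upstream sequences of genes with no promoter peak in either library, taken from RefSeq promoter records of build GRCm38.p6, with TATAAA in capitals. Cyp8b1 makes the 12-alpha-hydroxylated bile acids (chr9:121916306-121916555, minus strand), and Cyp3a11 is a main drug-oxidising P450 of mouse liver (chr5:145879965-145880104, minus strand). Cyp3a11 was picked as a well-known liver gene, after its values were seen. The Cyp3a11 run leaves out the 110 bases next to the start, which lie in an annotated untranslated region.
Cyp8b1 upstream: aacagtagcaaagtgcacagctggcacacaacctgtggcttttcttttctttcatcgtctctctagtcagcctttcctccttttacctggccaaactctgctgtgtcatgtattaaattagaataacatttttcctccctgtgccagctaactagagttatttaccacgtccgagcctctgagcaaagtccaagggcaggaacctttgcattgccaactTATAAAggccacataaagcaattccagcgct
Cyp3a11 upstream: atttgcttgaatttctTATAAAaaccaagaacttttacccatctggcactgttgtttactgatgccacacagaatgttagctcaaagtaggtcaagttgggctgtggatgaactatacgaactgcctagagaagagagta
In Cyp8b1 the first base of TATAAA lay 31 bases before the start, and in Cyp3a11 that of the marked TATAAA lay 234 bases before. The Cyp8b1 run of 250 bases held 4 CpG, and the Cyp3a11 run of 140 bases held 1.

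The peak lists held 85603 peaks in replicate 1 and 87847 in replicate 2, and the footprint lists held 214072 and 189951 intervals. Read depth is not given in these files. A peak within 1 kb of a transcription start was present in both libraries at all 8 neuronal markers, and at 5 of 10 markers of glia and vessels and 0 of 8 liver markers. Among all protein-coding genes the share was 61.5%. Among those of like CpG content at the 5′ end it was 66.3% for the neuronal list, 49.5% for glia and vessels, and 23.4% for liver. Among the liver markers Tdo2 had a weak peak in replicate 1.

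A promoter peak was counted where a peak reached within 1 kb of an annotated transcription start site (TSS) of the gene, and a promoter is called open here where both libraries had one. This held for 21 of the 98 P450 genes, or 21.4%, against 61.5% of all protein-coding genes. Another 6 members had such a peak in 1 library, and 71 had none in either. Of the 71, Cyp2j7 was the single gene with any position of the deposited cut-rate track at a false discovery rate (FDR) of 0.05 or lower in a promoter window, with 0.0452 in replicate 2. This is 1.41% of the P450 genes without a promoter peak, against 3.35% of all such protein-coding genes. The signal of the strongest promoter peak, averaged over the libraries, had a median of 1.11 in the 21 P450 genes and of 2.34 in all genes with an open promoter. Of the 21 P450 genes, 5 lay above that median. In bulk tissue a weak peak in many cells and a strong peak in few cells cannot be told apart.

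**Figure D1:**
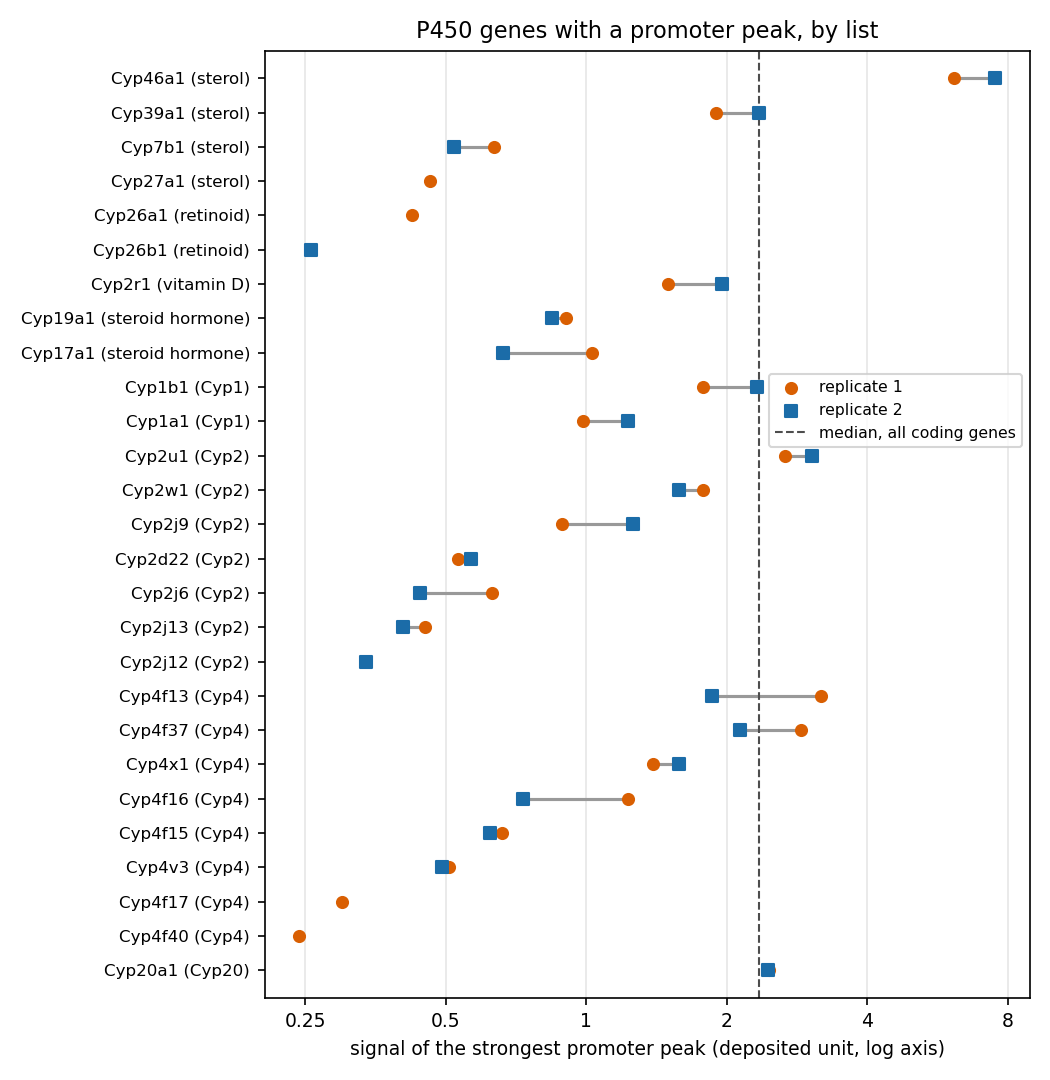
Signal of the strongest promoter peak of the 27 P450 genes with a promoter peak in at least 1 library, on a log axis; circles are replicate 1 and squares replicate 2, grey bars join the libraries, and the dashed line is the median of 2.34 over all protein-coding genes with an open promoter. Cyp46a1 stands at 6.14 and 7.51, and 6 genes have a single symbol because 1 library gave no peak.

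The sterol enzymes spanned the widest range of the named lists. Cyp46a1 had a promoter signal of 6.14 in replicate 1 and 7.51 in replicate 2, the highest of all members, at the 98.5th percentile of the genes with an open promoter. Each library had 7 footprints in that peak, whose last 300 bases are the first run printed above. Around the gene, at chr12:108334381-108362234 on the plus strand, there were 7 peaks in replicate 1 and 6 in replicate 2 within the gene body and 10 kb on either side. Among them were a peak upstream of the promoter peak with 1.74 and 1.90, and one past the 3′ end with 2.1 and 2.43. Cyp46a1 was thus open at its promoter and at several sites around it in both libraries.

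Cyp39a1, the 24-hydroxycholesterol 7-alpha-hydroxylase that acts on the product of Cyp46a1, had 1.90 and 2.35 at its promoter. That peak also lay within 1 kb of the start of the neighbouring Slc25a27, so the peak cannot be assigned to 1 of the 2 genes. An intronic peak 32036 bases into Cyp39a1 reached 1.93 and 1.64, about the level of the promoter. Cyp7b1, the oxysterol 7-alpha-hydroxylase, had a weak promoter peak of 0.633 and 0.520. Cyp27a1, the mitochondrial sterol 27-hydroxylase, had 0.463 in replicate 1 and no promoter peak in replicate 2. Cyp7a1, the rate-limiting enzyme of bile acid synthesis, and Cyp8b1 had none, and the Cyp7a1 region held no peak in either library. Thus 3 of 6 sterol enzymes had an open promoter, or 50%, against 61.5% of all protein-coding genes. Among protein-coding genes of like CpG content at the 5′ end the share was 68.3%.

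None of the 3 retinoic acid hydroxylases had a promoter peak shared by both libraries. Cyp26a1 had 0.424 in replicate 1 alone, in a peak centred 896 bases from its nearest start site, and Cyp26c1 had none in either. Both had nearby peaks in both libraries: one past the 3′ end of Cyp26a1 had 1.40 and 1.24, and one near the 3′ end of Cyp26c1 had 0.452 and 0.588. Cyp26b1, the family member best known in brain, had a promoter peak of 0.257 in replicate 2 alone. Its strongest peak lay in an intron, 3427 bases into the gene (chr6:84590401-84590560), with 2.62 and 2.08, and a second intronic peak had 1.03 and 0.971. The sequence of the first intronic peak is given on the gene's strand, with capitals for the 39 bases in footprints of both libraries.
Cyp26b1 intron peak: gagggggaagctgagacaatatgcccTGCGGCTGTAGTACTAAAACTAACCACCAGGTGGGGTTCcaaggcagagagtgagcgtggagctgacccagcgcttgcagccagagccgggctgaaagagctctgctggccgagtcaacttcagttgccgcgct
The sites shared by both libraries at the retinoic acid hydroxylases therefore all lay more than 1 kb from the gene's own start sites.

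Over the Cyp26b1 region there were 2 peaks in replicate 1 and 26 in replicate 2. The other 24 peaks of replicate 2 were weak, with signals of 0.0742 to 0.371, and lay between 84589821 and 84601732 on chromosome 6; the promoter peak of replicate 2 was one of them. Windows of 50 kb with at least 20 peaks in one library and at most 5 in the other numbered 13 for replicate 1 and 68 for replicate 2. They held 0.357% of the peaks of replicate 1 and 2.22% of those of replicate 2. Whether the weak run at Cyp26b1 belongs to this pattern of the library was not tested.

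**Figure D2:**
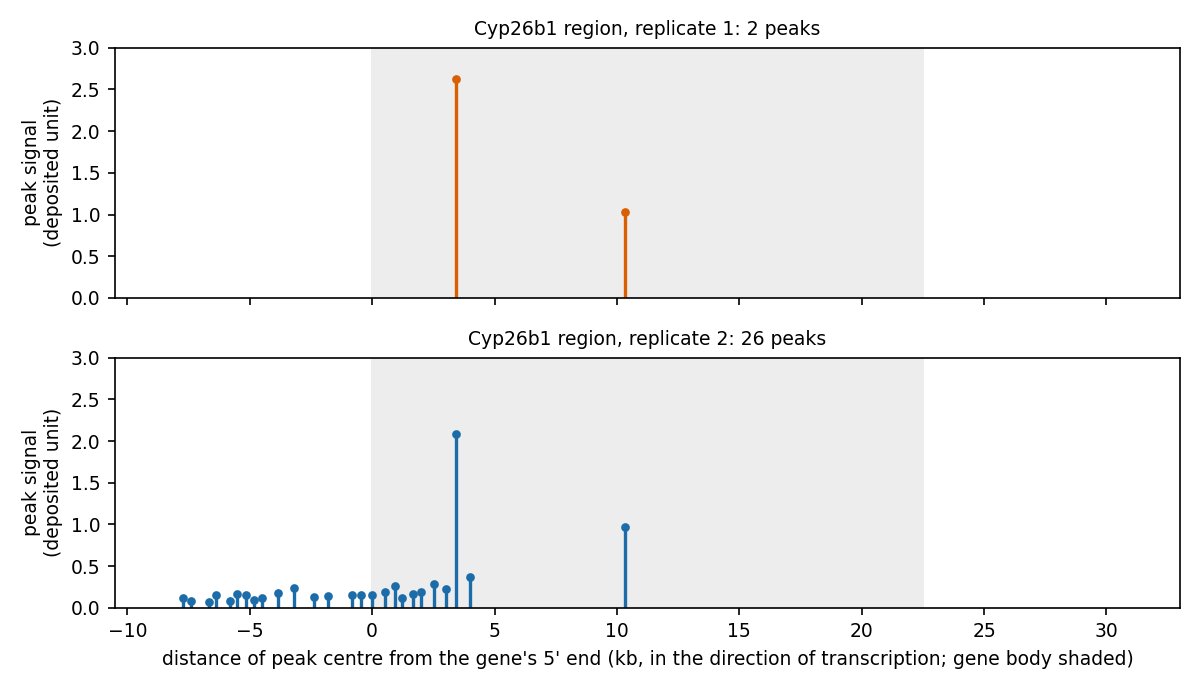
Peaks in the Cyp26b1 gene body (shaded) and 10 kb on either side, by distance from the 5′ end in kb along the direction of transcription, replicate 1 above replicate 2; the height is the peak signal in the deposited unit. Both libraries share the 2 intronic peaks, and the 24 weak peaks of at most 0.371 occur in replicate 2 alone.

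Of the vitamin D enzymes, Cyp2r1, a vitamin D 25-hydroxylase that belongs by name to the Cyp2 family, had a promoter peak of 1.5 and 1.95. Cyp27b1, which makes the active hormone, and Cyp24a1, which degrades it, had no promoter peak in either library. The 5′ end of Cyp24a1 held 62 CpG in 1 kb, almost as many as the 65 of Cyp2r1, and its whole region was without a peak. Cyp27b1 had 6 and 4 peaks in its region, the most of any member without a promoter peak, but none in the gene itself; the strongest, with 2.53 and 2.61, was at the start sites of Eef1akmt3 and Mettl1.

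Among the 6 enzymes of steroid hormone synthesis, 2 had an open promoter, or 33.3%, against 61.5% of all protein-coding genes. Cyp17a1, the 17-alpha-hydroxylase, had 1.03 and 0.662. Cyp19a1, the aromatase that makes oestrogens, had 0.904 and 0.845. Both peaks lay within 1 kb of internal start sites, and that of Cyp19a1 was centred 86629 bases past the first 5′ end. Cyp11a1, which starts steroid synthesis, had no promoter peak but had flanking peaks of up to 0.723 and 0.999. Cyp21a1, the 21-hydroxylase, had flanking peaks alone. Cyp11b1 and Cyp11b2, the adrenal enzymes of corticosterone and aldosterone synthesis, had no peak in their regions.

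In the Cyp1 family, whose members oxidise aromatic hydrocarbons under the aryl hydrocarbon receptor, Cyp1b1 had 1.78 and 2.32 in a peak upstream of a start site, and with a window of 500 bp its value was 0.449, the mean of weaker peaks. Cyp1a1 had 0.983 and 1.23 in an intronic peak centred 8623 bases past its 5′ end and about 1 kb from an alternative start, and with a window of 500 bp it had no promoter peak. Cyp1a2, abundant in liver, had none. Cyp20a1, a P450 with no settled substrate, had 2.46 and 2.45, the closest agreement between libraries among the stronger members.

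Within Cyp2 and Cyp3, 6 of 56 genes had an open promoter, or 10.7%, against 61.5% of all protein-coding genes. Cyp2u1 was the strongest with 2.67 and 3.05. Cyp2w1 followed with 1.78 and 1.58 in an intronic peak near an alternative start. Cyp2j9 had 0.887 and 1.26. The other 3 were weaker: Cyp2j6 had 0.627 and 0.440, Cyp2d22 had 0.531 and 0.565, and Cyp2j13 had 0.452 and 0.405. The Cyp2d22 peak was intronic, centred 3381 bases past the 5′ end and about 1 kb from an alternative start. With a window of 500 bp Cyp2d22 had a promoter peak in 1 library, and with the shorter peak lists in neither. Cyp2j12 had 0.337 in replicate 2 alone. No other Cyp2 gene of the set and none of the 9 Cyp3 genes had a promoter peak in either library. Thus 4 of the 7 genes with any peak belonged to the Cyp2j family of arachidonic acid epoxygenases. No gene of the Cyp2a, Cyp2b, Cyp2c, Cyp2e and Cyp3a subfamilies had one, and in Cyp2d, another drug-oxidising subfamily, Cyp2d22 was the single gene.

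The Cyp4 family, largely fatty acid omega-hydroxylases, had 6 of 20 genes with an open promoter, or 30%, against 61.5% of all protein-coding genes. Cyp4f13 had 3.19 and 1.86, and Cyp4f37 had 2.89 and 2.14. Cyp4x1, a brain P450, had 1.39 and 1.58. Cyp4f16 had 1.23 and 0.731. Cyp4f15 and Cyp4v3 were weaker, Cyp4f15 with 0.661 and 0.622 and Cyp4v3 with 0.509 and 0.491. Cyp4f17 with 0.299 and Cyp4f40 with 0.243 had a peak in replicate 1 alone. The Cyp4a genes had no promoter peak. Over the 21 members with an open promoter, 12 were higher in replicate 1 and 9 in replicate 2. The log2 ratio of replicate 1 over replicate 2 had a median of 0.05 and an SD of 0.39, with the largest gap at Cyp4f13, at 0.78. Over all 13489 genes with an open promoter, 4205 were higher in replicate 1 and 9284 in replicate 2, and the median was -0.15.

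The rule set the sterol, retinoid and vitamin D enzymes against Cyp2 and Cyp3. The first set had an open promoter in 4 of 12 genes, or 33.3%, against 10.7% of Cyp2 and Cyp3, a difference of 22.6 percentage points. The sets also differed in CpG content: the 1 kb around the 5′ end held a median of 42.5 CpG in the sterol, retinoid and vitamin D enzymes, 6 in Cyp2 and Cyp3 and 41 in all protein-coding genes. From the share of all protein-coding genes with an open promoter in the same of 10 CpG bins, 69.7% of the sterol, retinoid and vitamin D enzymes and 17.9% of Cyp2 and Cyp3 would have had one. The observed shares were below that in both sets (observed minus expected -36.3 percentage points in the first and -7.23 in the second). With 17.9% expected, the second set could not fall short by more than 17.9 points, so the sizes of these gaps are not directly comparable. With the highest CpG count over all start sites in place of that at the 5′ end, the Cyp2 and Cyp3 value was 0.476 and the other -34.7. Over all 98 members the observed 21.4% stood beside 27.6% expected by CpG. Other lists lay above their expected share, but these are small lists. Cyp4, with 20 genes, stood at 30% beside 25.5%, and the 6 steroid hormone enzymes at 33.3% beside 27.4%. Cyp1, with 3 genes, stood at 66.7% beside 32.2%. The calls used any start site, whereas the expected shares used CpG at the 5′ end. With the 5′ end as the only start site, Cyp17a1, Cyp19a1, Cyp4f37 and Cyp1a1 had no promoter peak. No steroid hormone enzyme then had an open promoter.

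Split by CpG, the order of the 2 sets turned round in the upper range, by a small number of genes. Among genes with 15 or more CpG in the window, 4 of 11 sterol, retinoid and vitamin D enzymes (36.4%), 6 of 10 Cyp2 and Cyp3 genes (60%) and 80.8% of all protein-coding genes had an open promoter. With 0 to 14 CpG the counts were 0 of 1, 0 of 46 and 13.6%, which gives no order of the sets. The 6 open Cyp2 genes thus all had at least 15 CpG, though 4 of them (Cyp2j6, Cyp2w1, Cyp2j9 and Cyp2j13) had 16 to 20, below the median of 41 for all genes, and 46 of the 56 genes of the set had fewer than 15. The gap was small under some settings: 36.4% against 40% with the 5′ end as the only start site or with a window of 500 bp. It was also small with the stronger 50% of the peaks, at 27.3% against 30%, and without replicate 2, at 54.5% against 60%. Under the others it was wider: 27.3% against 40% with the shorter peak list and 36.4% against 50% with peak centres in the window. The shares were 45.5% against 60% with a window of 2.5 kb or without replicate 1.

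**Figure D3:**
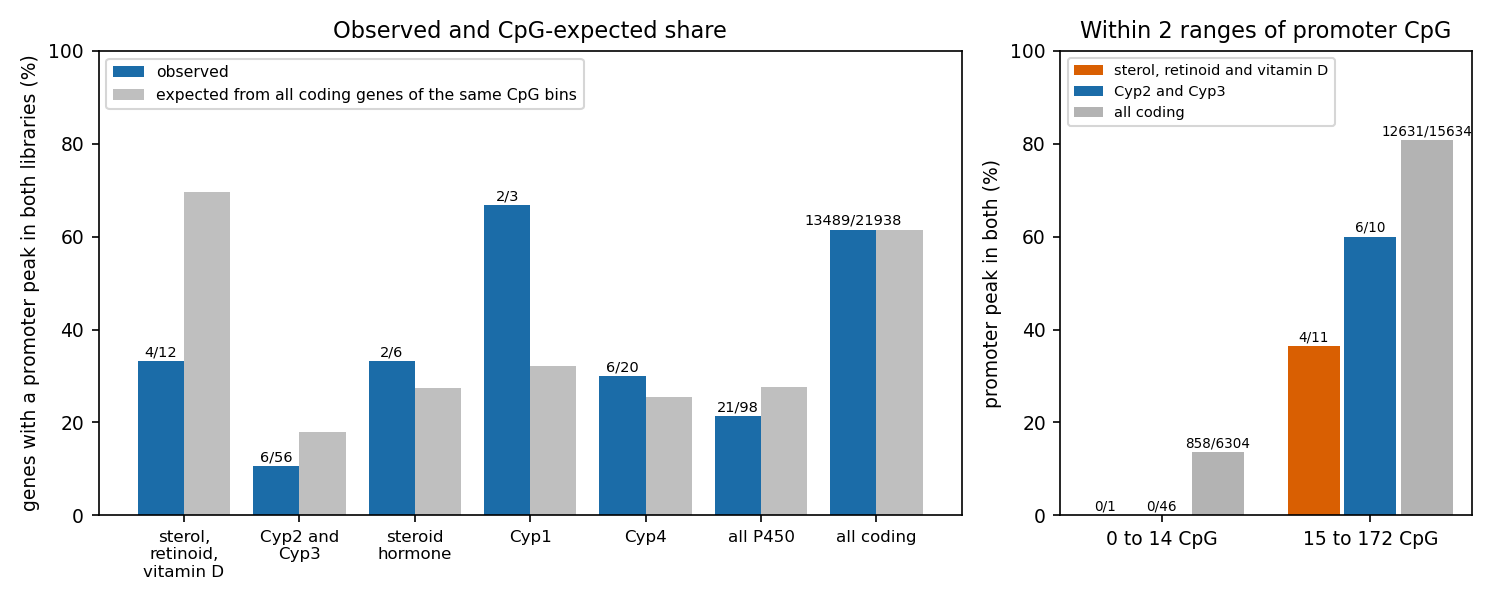
Left, the share of each gene set with an open promoter (blue) beside the share expected from all protein-coding genes of the same CpG bins (grey), in percent; right, the observed share within 2 ranges of CpG count in the 1 kb around the 5′ end. The sterol, retinoid and vitamin D set reached 33.3% against an expected 69.7%, and in the range of 15 or more CpG it stood at 36.4% beside 60% for Cyp2 and Cyp3.

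Many of the closed genes have near copies. In 45 of the 98 members at least 10% of the 32-base words in the promoter windows occurred elsewhere in the genome, and 2 of these 45, Cyp4f16 and Cyp4f37, had an open promoter. None of the 12 sterol, retinoid and vitamin D enzymes was among them, against 32 of the 56 Cyp2 and Cyp3 genes. Among members below 10% the sets stood at 4 of 12 and 6 of 24, or 25.0%, and the difference was 8.33 points. In Cyp3a41b the share of repeated words was 89.9%, whereas Cyp3a11 had 4.26% and Cyp7a1 0.254% and both were without a peak. No source used here says how the submitters treated reads that fit several places, and the part of near copies in the closed calls was not tested.

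Known promoter motifs were searched on both strands in the RefSeq promoter records, which run from 250 bases before to 50 after a start and matched 75 of the 98 members with 85 promoters. TATAAA occurred in 40% of the member promoters against 13.6% of all promoters. It was in 37.5% of the promoters of the 8 matched sterol, retinoid and vitamin D enzymes and in 51.0% of those of the 48 matched Cyp2 and Cyp3 genes. GGGCGG, the core bound by Sp1 and related factors, was in 4 of the 8 sterol, retinoid and vitamin D promoters, or 50%. Its share was 11.8% in Cyp2 and Cyp3 and 35.7% in all promoters. The Cyp2 and Cyp3 promoters include near copies, so they are not independent sequences, and the motif shares were not matched by CpG content. Promoters of members with a peak in both libraries had TATAAA in 16.7% and GGGCGG in 50%, and those of members with no peak had 47.5% and 8.20%. AGGTCA, a core that many nuclear receptors bind, occurred in 25.9% of the member promoters against 16.3% of all. It was in 0 of the 8 sterol, retinoid and vitamin D promoters and in 37.3% of the Cyp2 and Cyp3 promoters, and in 5.56% of the promoters of open members against 34.4% of those with no peak. CCAAT was at 44.7% against 37.4%, and TNGCGTG, which contains the core read by the aryl hydrocarbon receptor, at 1.18% against 5.07%.

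Gene bodies with 10 kb on either side were searched for peaks of any kind. No peak in either library fell in that region for 42 of the 98 members, or 42.9%, against 17.3% of all protein-coding genes. These were 2 of the 12 sterol, retinoid and vitamin D enzymes, Cyp7a1 and Cyp24a1, and 32 of the 56 Cyp2 and Cyp3 genes. Relative to all protein-coding genes of the same length bin, the number of peaks was 0.782 in replicate 1 and 1.15 in replicate 2 for the sterol, retinoid and vitamin D enzymes, and 0.219 and 0.214 for Cyp2 and Cyp3. Without Cyp26b1 and its weak run the first values were 0.794 and 0.596. Cyp3 alone had 0.0615 and 0.0608.

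Some members without a promoter peak had peaks close by. After Cyp27b1, those with most were Cyp2t4, with 3 and 4 peaks, and Cyp2c23, an epoxygenase gene, with 3 and 4. The strong peaks near Cyp2t4 were at the start of its neighbour Egln2, with 3.08 and 4.13. Cyp2c23 had its own intronic peak of 0.486 and 0.662. Cyp2b19, Cyp4b1 and Cyp11a1 had 5 peaks each over the 2 libraries. Cyp2c70, Cyp2f2, Cyp21a1, Cyp4f14, Cyp4f18 and Cyp4f39 followed with 4 each, and Cyp2f2, which bioactivates naphthalene in lung, had both of its peaks inside the gene, the stronger at 0.842 and 0.851. In Cyp2c70 all 4 were from replicate 2.

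The tandem clusters differed in how closed they were. Clusters were runs of at least 3 members with gaps under 200 kb. The Cyp2c cluster, 14 genes over 1.20 Mb, held 4 peaks in replicate 1 and 7 in replicate 2, none of which overlapped between libraries. These peaks were weak, at most 0.22 and 0.457, against medians of 0.627 and 0.679 over all peaks. How often peaks as weak overlap elsewhere in the genome was not counted. The Cyp3a cluster, 8 genes over 0.788 Mb, held 3 and 2. This is 3.33 and 5.83 peaks per Mb for Cyp2c and 3.81 and 2.54 for Cyp3a, against 31.4 and 32.2 over the genome. The cluster from Cyp2s1 to Cyp2a4 had 5.63 and 9.39 per Mb. The Cyp2b23 to Cyp2t4, Cyp2d, Cyp2j and Cyp4x1 to Cyp4b1 clusters had 13.7 to 22.5 per Mb. The Cyp4f cluster of 6 genes was as dense in peaks as the genome, with 37 and 33.3 per Mb.

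**Figure D4:**
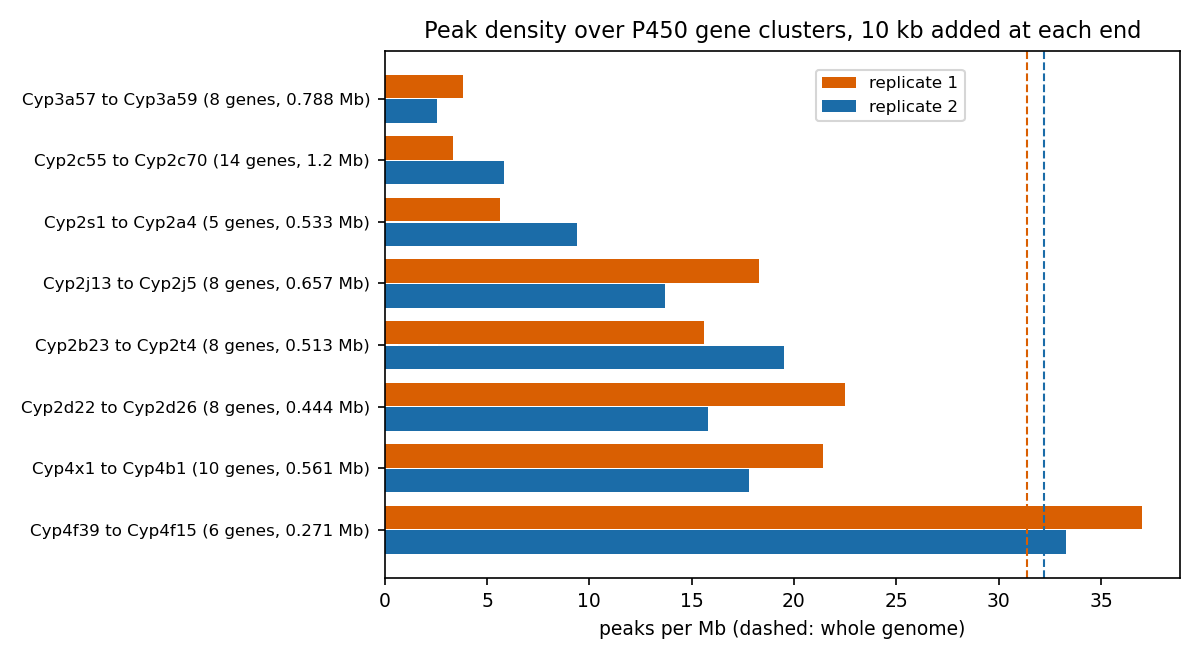
Peaks per Mb over the 8 tandem clusters of P450 genes with 10 kb added at each end; orange bars are replicate 1, blue bars replicate 2, and dashed lines mark the whole genome at 31.4 and 32.2. The Cyp3a and Cyp2c clusters stay below 6 per Mb, and the Cyp4f cluster is the only one at the level of the genome.

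Most of the Cyp4f genes, which inactivate leukotriene B4 and other fatty acids, had a peak at the end of the gene. Of these, Cyp4f16 and Cyp4f13 had a separate peak at the start in both libraries, and Cyp4f14 and Cyp4f18 had no promoter peak. The peaks at the gene end were noticed in the data and then counted. A peak overlapped the last 1.5 kb of the gene in both libraries in 6 of the 9 Cyp4f genes, against 5.62% of the 89 other members and 6.29% of all protein-coding genes. Cyp4f17 had 2.05 and 1.94 there, and Cyp4f16 had 2.22 and 2.18. The Cyp4f37 peak of 2.89 and 2.14 that counted as a promoter peak above is one of these: it lies near an alternative start in the last part of the gene, and the gene's first 5′ end had no peak. Cyp4f18 had 1.56 and 1.42, Cyp4f13 had 0.689 and 1.76, and Cyp4f14 had 0.463 in each library. The Cyp4f13 peak, too, lies within 1 kb of an alternative start. Of the bases of these peaks, 220 of 220 in Cyp4f16, 161 of 161 in Cyp4f14, 254 of 280 in Cyp4f13 and 169 of 200 in Cyp4f17 lay in annotated untranslated exon sequence. In Cyp4f37 this held for 124 of 200, and in Cyp4f18 for 81 of 240. Cyp4f15 had 0.365 in replicate 2 alone, and Cyp4f39 and Cyp4f40 had none in that stretch. The 3′ end peaks of Cyp4f17 and Cyp4f16 were thus stronger in both libraries than those genes' promoters.

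**Figure D5:**
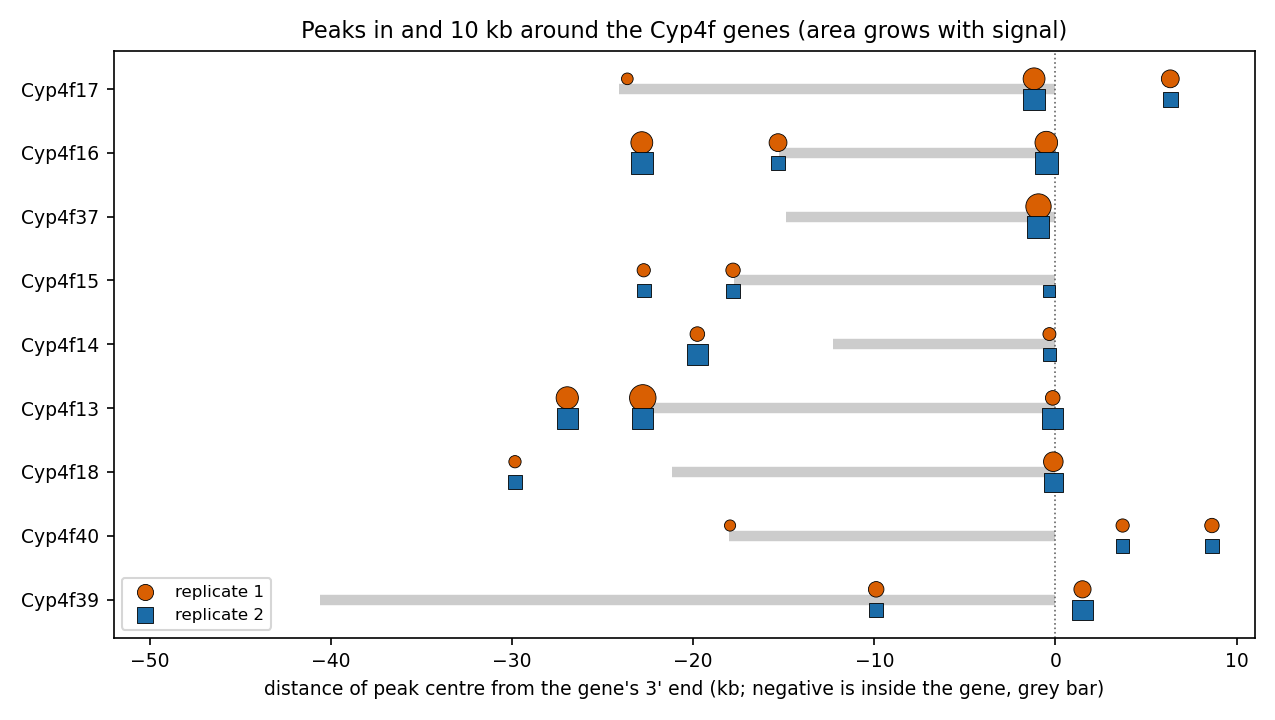
Peaks in the 9 Cyp4f genes and 10 kb around them, by distance in kb from the gene's 3′ end (dotted line); grey bars are the gene bodies, circles are replicate 1, squares replicate 2, and the area grows with the peak signal. For 6 genes both libraries have a symbol inside the last 1.5 kb of the gene, and Cyp4f15 has one in replicate 2 alone. Cyp4f39 has a symbol of both libraries just past its 3′ end, with 1.11 and 1.73.

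In 5 of these genes the peak held the 9-base run AGNGGGCGC on the gene's strand. These letters lie within the longer consensus of the insulator protein CTCF; the match is a description, and binding was not measured. The 30 bases around it, from mm10 on the gene's strand and with the run in capitals, are given for Cyp4f17 (chr17:32528954-32528983, plus), Cyp4f16 (chr17:32551293-32551322, plus), Cyp4f37 (chr17:32635229-32635258, plus), Cyp4f15 (chr17:32703028-32703057, plus) and Cyp4f14 (chr17:32905387-32905416, minus).
Cyp4f17 3′ end: acccagagccatcAGAGGGCGCtgcaggac
Cyp4f16 3′ end: acccagagccatcAGAGGGCGCtgcaggat
Cyp4f37 3′ end: acagaacgccagcAGGGGGCGCtagagggc
Cyp4f15 3′ end: gcagaataccagtAGGGGGCGCtggaggac
Cyp4f14 3′ end: accgagagccagcAGGGGGCGCtgtgaaat
Footprints of both libraries overlapped the run in Cyp4f17, Cyp4f16, Cyp4f37 and Cyp4f14. In Cyp4f15 a footprint of replicate 2 alone did, and it reached only the first bases of the run, ending at 32703042. The Cyp4f17 and Cyp4f16 windows shared 29 of 30 bases, and the other pairs shared 19 to 24. The run occurred on either strand in 4.34% of all peaks of replicate 1 and 3.90% of those of replicate 2. It was not among the motifs named in advance, so these shares beside the Cyp4f matches are no test of enrichment. The genes are paralogs, so their windows are not independent sequences. The peaks at Cyp4f13 and Cyp4f18 did not hold these letters.

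Genes that serve the P450 enzymes mostly had open promoters. All 9 matched electron transfer genes had an open promoter, against 79.7% expected from their CpG bins and 61.5% of all genes. Among them Por, the reductase of the microsomal P450 enzymes, had 4.31 and 5.77, Cyb5a, cytochrome b5, had 4.32 and 6.77, and Pgrmc2, a heme-binding partner, had 3.98 and 5.22. Heme synthesis genes did so in 8 of 9, against 57.4% expected, with Alas1, the first enzyme of the pathway, at 4.02 and 2.51; Alas2, the red cell form, had none. All 18 cholesterol synthesis genes and all 11 genes of sterol regulation and export had an open promoter, against 81.9% and 80.4% expected. The highest of the cholesterol synthesis genes were Fdft1, squalene synthase, with 6.18 and 8.06, Mvd with 4.79 and 8.13, and Hmgcs1 with 4.48 and 6.40. Those of sterol regulation and export were Srebf2, the main activator of cholesterol synthesis genes, with 4.54 and 6.86, Insig1 with 4.37 and 6.68, and Scap with 5.36 and 3.68. Cyp51, which the rule left out, had 2.29 and 2.54.

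Regulators of the P450 genes were mixed. Of 10 receptors and liver factors, 5 had an open promoter, against 70.5% expected from CpG, among them Cebpa with 2.96 and 3.01, Arnt with 2.02 and 2.38 and Ahr, the aryl hydrocarbon receptor, with 1.67 and 1.66. Nr1i2, the pregnane X receptor, had 0.322 in replicate 1 alone. Nr1i3, the constitutive androstane receptor, and the liver factors Hnf4a and Foxa2 had none. In the retinoid pathway 7 of 12 genes had one in both libraries, or 58.3%, close to the 61.5% of all genes and the 64.9% expected from CpG, with Rdh10, a retinol dehydrogenase, at 2.43 and 2.55, and Crabp2 and Stra6 had none. In the vitamin D pathway Rxra had 1.41 and 1.46, and Vdr, the vitamin D receptor, and Gc, its carrier protein, had none.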

How the data were processed

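DNase-seq libraries of mouse frontal cortex were analysed from peak lists, footprints and a cut-rate track, all on mm10. The peak lists carry a signal value per peak, given as deposited by the authors. The cut-rate track lists positions with a false discovery rate, a q-value of at most 0.05, and the footprint lists a constant p-value threshold of 0.01, as deposited. Each library's files were made from its own alignment, per the file headers. No source used here names the aligner or the caller, and depth is unknown.

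From these, the longer of each library's 2 peak lists was set against GENCODE starts and gene bodies (Python 3.11.15, pandas 2.3.3, numpy 2.4.6), requiring 1 bp of overlap. Mitochondrial genes were left out. Expected shares were means of the share in 10 CpG bins, and expected peak counts used 10 length bins. The code was tested on planted peaks. No hypothesis test was run, since 1 group of 2 libraries has no contrast. The members and lists were chosen with earlier results of these data known. Named genes were every sterol, retinoid, vitamin D and steroid hormone enzyme, every other member with a promoter peak, the 10 members without one that had most peaks nearby (12 with ties), clusters by counts, and up to 3 open and 3 closed genes of each pathway list. Some genes of the pathway lists are not reported here by name.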

Additional observations from a re-analysis of the deposited data

How the results depend on the processing

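No paired analysis was possible because the 2 libraries form 1 group. The count of P450 genes with an open promoter stayed within 1.5 times of 21 under all alternatives run, from 14 with the stronger 50% of the peaks to 25 in replicate 1 alone. The share of all protein-coding genes moved too, to 55.6% and 64.1% in these settings, from 61.5%. With the gene's 5′ end as the only start site the count was 15, and the share of all genes was 56.7%. With the stronger 50% of the peaks the Cyp2 and Cyp3 count was 3 in place of 6. The difference of 22.6 points between the sterol, retinoid and vitamin D enzymes and Cyp2 and Cyp3 kept its sign in every alternative run. It was 31.0 with a window of 2.5 kb, 15 with Cyp2r1 counted among Cyp2, 8.33 among members with under 10% repeated words (chosen after seeing the data), and 29.2 to 39.3 with 1 library left out. Observed minus CpG-expected over all members was -4.98 with 20 bins, -0.882 with the highest CpG over all starts and -5.71 to -4.69 with 1 library left out. With 1 library left out it was -29.5 to -22.7 for the sterol, retinoid and vitamin D enzymes and -9.66 to -6.94 for Cyp2 and Cyp3. The Cyp2 and Cyp3 value changed sign to 0.476 with the highest CpG over all starts. The ratio of observed to length-expected peaks was 0.337 for all members and 0.168 for Cyp2 and Cyp3 in gene bodies only, and 0.501 and 0.345 with flanks of 50 kb. It was 0.203 for Cyp2 and Cyp3 with the shorter peak list. For the sterol, retinoid and vitamin D enzymes the mean of 0.967 became 0.695 without Cyp26b1 (chosen after seeing the data), and it was 0.782 to 1.15 with 1 library left out. The cause of these shifts was not tested. With 2 libraries, weak peaks near the detection limit, such as the 6 seen in 1 library, limit the counts.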
